A study of Mus musculus with 24 samples.

Results

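The respiratory chain genes of the mouse striatum were taken from the gene-level RNA files by symbol: those starting with mt-Nd, mt-Co, mt-Cytb or mt-Atp, and those starting with Ndufa, Ndufb, Ndufc, Ndufs, Ndufv, Sdh, Uqcr or Cox4 to Cox8, with pseudogene symbols left out. The rule found 97 of 37289 genes, of which 13 are encoded in the mitochondrial genome and 84 in the nucleus. The nuclear genes comprise 68 subunits and 12 assembly factors that passed a filter on low counts, and 4 genes that did not pass it. All 13 mitochondrially encoded genes passed, so 93 of the 15955 genes tested belong to the set.

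RNA came from the striatum of female C57BL/6 mice that were either wild type or heterozygous for Cntnap2, the gene of a neuronal cell adhesion protein. Their mothers, each carrying both genotypes, were either left alone or exposed to variable stress for 7 days from embryonic day 12.5. The 4 groups are wild-type control, wild-type stressed, heterozygous control and heterozygous stressed mice, with 3 mice in each and 1 library per mouse. All pups were ear-tagged on postnatal day 12 and weaned on day 18, and the sources used here do not give their age at collection.

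Oxidative phosphorylation passes electrons from NADH through complex I, or from succinate through complex II, to complex III and then to oxygen at complex IV, and the proton gradient this builds drives ATP synthase. Complexes I, III and IV and ATP synthase are built from subunits of both genomes, while every subunit of complex II is nuclear. Neurons depend heavily on this pathway, and the mitochondrial messages are processed from long transcripts of a small circular genome, whereas each nuclear gene has its own promoter.

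Nuclear members are known for promoters that bind NRF1, GABP of the ETS family and YY1. RefSeq promoter windows on GRCm38.p6, from 250 bases before to 50 bases after a start, matched 65 of the 84 nuclear members with 67 windows. Both strands were searched for 3 exact words. The NRF1 word GCGCATGC was in 9 of the 67 windows (13.4%) and in 2.71% of all 32851 windows. The ETS word CCGGAAG was in 16 windows (23.9%) against 8.86% of all, and the YY1 word AAGATGGC in 8 (11.9%) against 2.75% of all. At least 1 of the 3 was in 29 windows (43.3%) against 13.3% of all windows. A match is a description of letters, not of a bound site, and the ETS word ends in the letters with which the YY1 word starts, so that 1 stretch can hold both. The windows were matched by symbol, since the files use another build. The last 120 bases before the start are shown for 4 abundant subunits chosen because they hold the ETS word. Beside them are Ndufb8, which also fell with the length slope described below, and Sdha, which rose. Neither holds any of the 3 words in this stretch, but Ndufb8 holds the YY1 word elsewhere in its window. Cox6a1 and Uqcr11 also hold the NRF1 word elsewhere in theirs. All are on the minus strand: Cox6a1 at chr5:115348959-115349078, Cox6b1 at chr7:30626115-30626234, Uqcr11 at chr10:80406822-80406941, Uqcrh at chr4:116075071-116075190, Ndufb8 at chr19:44555443-44555562 and Sdha at chr13:74350241-74350360. Capitals mark the ETS word on either strand.
Cox6a1: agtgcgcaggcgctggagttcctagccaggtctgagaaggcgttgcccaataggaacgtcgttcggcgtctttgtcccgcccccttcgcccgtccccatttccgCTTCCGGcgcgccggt
Cox6b1: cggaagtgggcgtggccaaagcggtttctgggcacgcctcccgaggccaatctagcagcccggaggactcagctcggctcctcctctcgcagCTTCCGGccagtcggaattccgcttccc
Uqcr11: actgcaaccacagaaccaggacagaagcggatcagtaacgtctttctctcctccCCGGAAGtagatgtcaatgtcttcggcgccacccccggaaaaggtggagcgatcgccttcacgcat
Uqcrh: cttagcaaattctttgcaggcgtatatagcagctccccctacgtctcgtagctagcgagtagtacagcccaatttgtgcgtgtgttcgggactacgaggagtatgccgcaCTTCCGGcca
Ndufb8: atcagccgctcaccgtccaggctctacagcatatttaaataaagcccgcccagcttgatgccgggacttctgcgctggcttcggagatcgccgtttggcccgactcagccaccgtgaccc
Sdha: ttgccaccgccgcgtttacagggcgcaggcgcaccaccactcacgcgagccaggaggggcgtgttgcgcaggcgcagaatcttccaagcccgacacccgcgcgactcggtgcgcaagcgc

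The libraries held 13587154 to 24039706 expected counts. All 6 heterozygous libraries were deeper (21410135 or more) than all 6 wild-type libraries (18538304 or fewer), so depth and genotype cannot be told apart. Cntnap2 ranged from 39.7 to 68.3 TPM (a level corrected for gene length and library total) in wild-type and from 36.0 to 59.5 TPM in heterozygous mice, so its level did not separate the genotypes. The sources used here do not say which part of the gene is altered, so this does not check the labels. Wild-type stressed replicate 2, labelled female, had 1.32 TPM of Xist, against 23.1 to 108.6 TPM in the other libraries. The file of heterozygous control replicate 1 carries another animal number than its label. All 11 striatal neuron markers were present, with a summed level of 3856 to 8794 TPM. Libraries also differed in how their reads were spread over short and long genes. This was measured as a length slope, the slope of a library's log2 deviation from the 12-library mean on log2 gene length, over 12782 genes that are not members. It ranged from -0.37 in heterozygous control replicate 1 and -0.30 in wild-type control replicate 1 to 0.28 in wild-type control replicate 3 and 0.29 in wild-type stressed replicate 3. These 4 libraries stand apart from the other 8, which lay between -0.09 and 0.13, and values without them are given below.

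The 13 mitochondrially encoded messages made up 7.31 to 17.6% of the summed TPM of a library, and the 84 nuclear members 2.43 to 4.58%. By mean TPM over the 12 libraries, the 3 catalytic core subunits of complex IV came first, with 24621 TPM for mt-Co1, 22868 for mt-Co3 and 20135 for mt-Co2. The ATP synthase subunit mt-Atp6 followed with 12083 TPM and the complex III subunit mt-Cytb, cytochrome b, with 10952. The 7 complex I subunits ranged from 6966 TPM for mt-Nd1 down to 1886 for mt-Nd4l. Several of these messages overlap: mt-Atp8 with mt-Atp6, and mt-Nd4l with mt-Nd4, while mt-Nd6 lies on the other strand from the rest. The sources used here do not state whether counting used strand, so the split of reads between these neighbours is uncertain.

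By mean, 2 nuclear members reached the range of the mitochondrial messages. Cox4i1, the ubiquitous form of a regulatory complex IV subunit, had 2716 TPM, above mt-Nd5 (2116) and mt-Nd4l. Cox8a, a small subunit of complex IV, had 1953 TPM, just above mt-Nd4l, and its levels overlapped those of mt-Nd4l over the libraries. Cox6a1, also of complex IV, followed at 1849 TPM, then Ndufa4 at 1540, first assigned to complex I and later placed in complex IV. Uqcrh, the hinge protein of complex III, was highest in its complex at 1175 TPM. Among the 7 nuclear core subunits of complex I, which carry the flavin and most iron-sulfur clusters, Ndufv2 was highest at 365 TPM and Ndufs1 lowest at 90.8. The 4 subunits of succinate dehydrogenase were close together, from 172 TPM for the flavoprotein Sdha to 278 for the iron-sulfur protein Sdhb. Assembly factors, which help build a complex without staying in it, reached at most 86.0 TPM, in Ndufaf5, and 5.61 TPM in Sdhaf3.

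**Figure D1:**
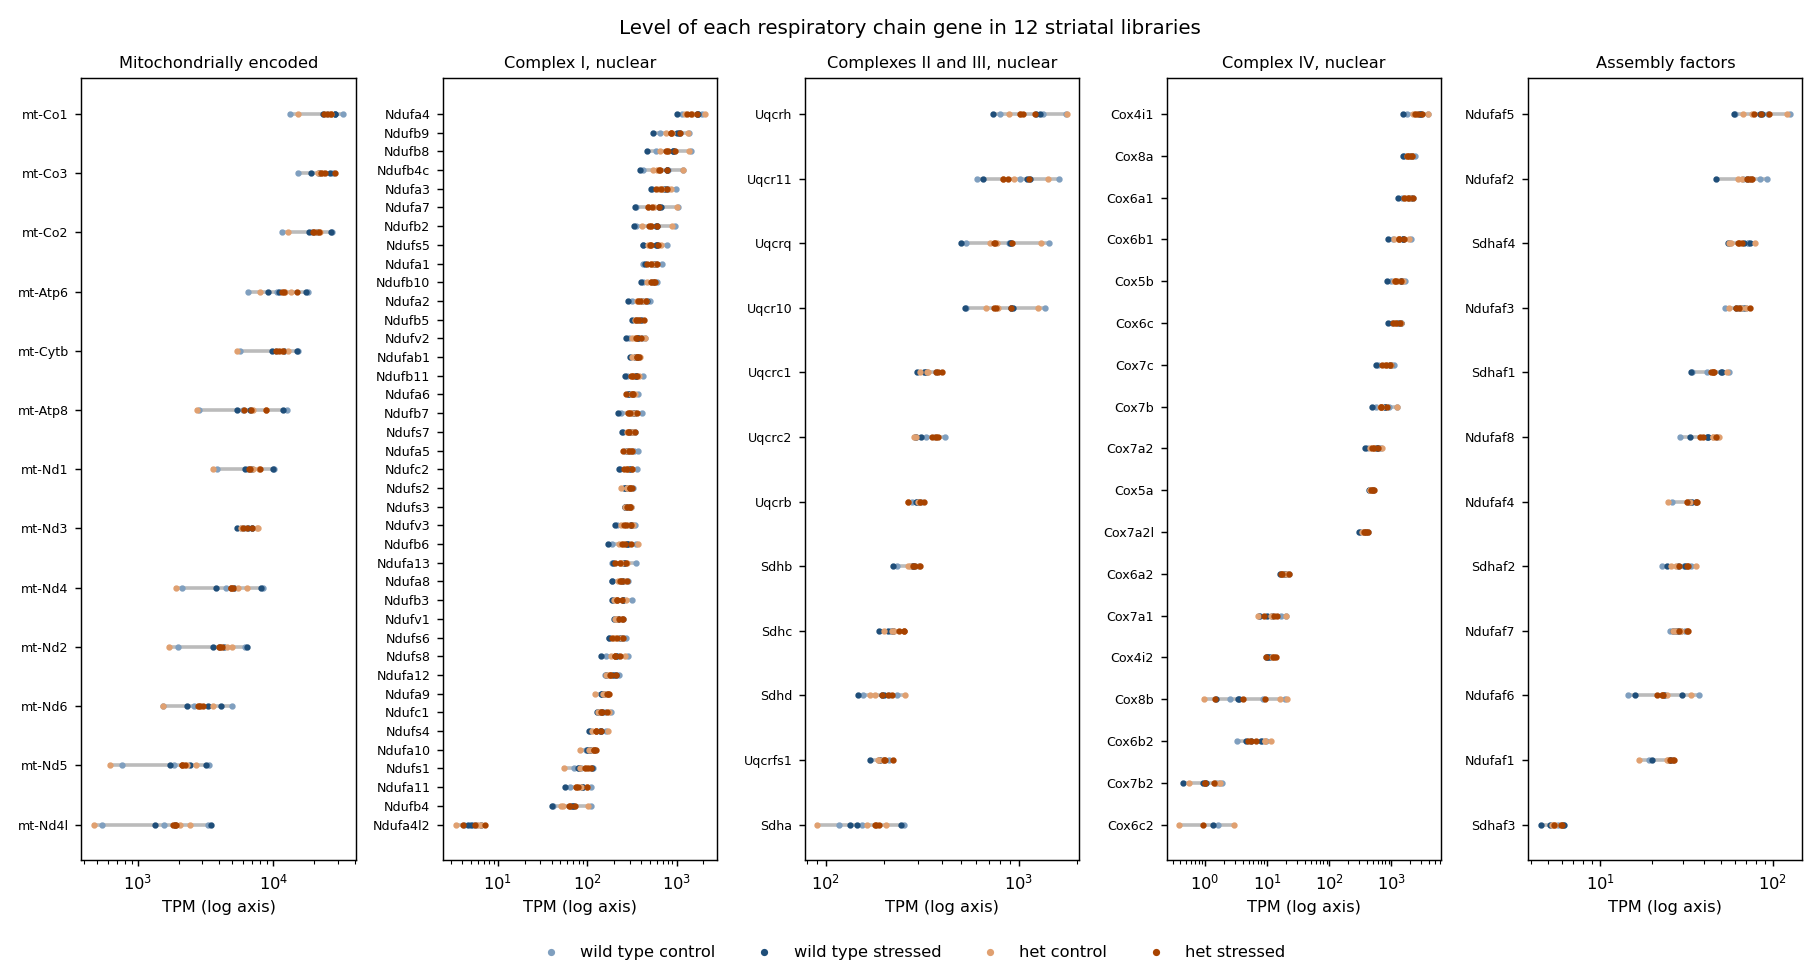
Level of each member with any TPM above 0, as TPM on a log axis, in panels by genome and complex. Each point is 1 of 12 libraries coloured by group and the grey bar spans the lowest to the highest library (libraries at 0 are not drawn). Cox4i1 lies above mt-Nd5 and mt-Nd4l by mean and Cox8a just above mt-Nd4l, the second isoforms of complex IV form a low cluster, and the colours of the 4 groups are mixed within most rows.

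Complex IV uses alternative forms of several subunits in other tissues, and in striatum each pair was strongly one-sided. The mean of Cox4i1 was 238 times that of Cox4i2, the lung and hypoxia form, and the ratio lay between 159 and 304 in the 12 libraries. Cox6a1 exceeded the heart and muscle form Cox6a2 by 96.1 times (68.9 to 120), and Cox7a2 exceeded the muscle form Cox7a1 by 44.0 times (33.4 to 63.6). Cox6b1 exceeded the testis form Cox6b2 by 201 times (98.4 to 322), and Cox7b exceeded Cox7b2 by 655 times (302 to 1153). These ratios varied over the libraries by less than 4-fold. The widest range was that of Cox8a over Cox8b, another heart and muscle form, at 103 to 1866 times. Ndufa4 exceeded its hypoxia-related relative Ndufa4l2 by 289 times (156 to 615).

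Cox8b had 19.4, 8.70 and 2.48 TPM in wild-type control replicates 1 to 3 and 3.48, 3.39 and 1.48 TPM in wild-type stressed mice. In heterozygous mice it had 20.5, 15.8 and 0.95 TPM in controls and 4.05, 1.42 and 9.15 TPM after stress. The high libraries were thus scattered over 3 groups, and the control and stressed mice overlapped. Choroid plexus marker genes varied in the same tissue, with a sum of 301 to 854 TPM in the 3 wild-type controls, heterozygous controls 1 and 2 and heterozygous stressed replicate 3, and of 6.07 to 26.0 TPM in the other 6 libraries. All 7 of these markers were detected. Cox8b was above 8 TPM in 5 of the 6 libraries with the high marker sum and at most 4.05 TPM in the other 6. Striated muscle markers, of which 5 of 10 passed the filter, had a sum of 13.1 to 21.7 TPM over the libraries. The part of choroid plexus or muscle tissue in the Cox8b level was not tested.

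**Figure D2:**
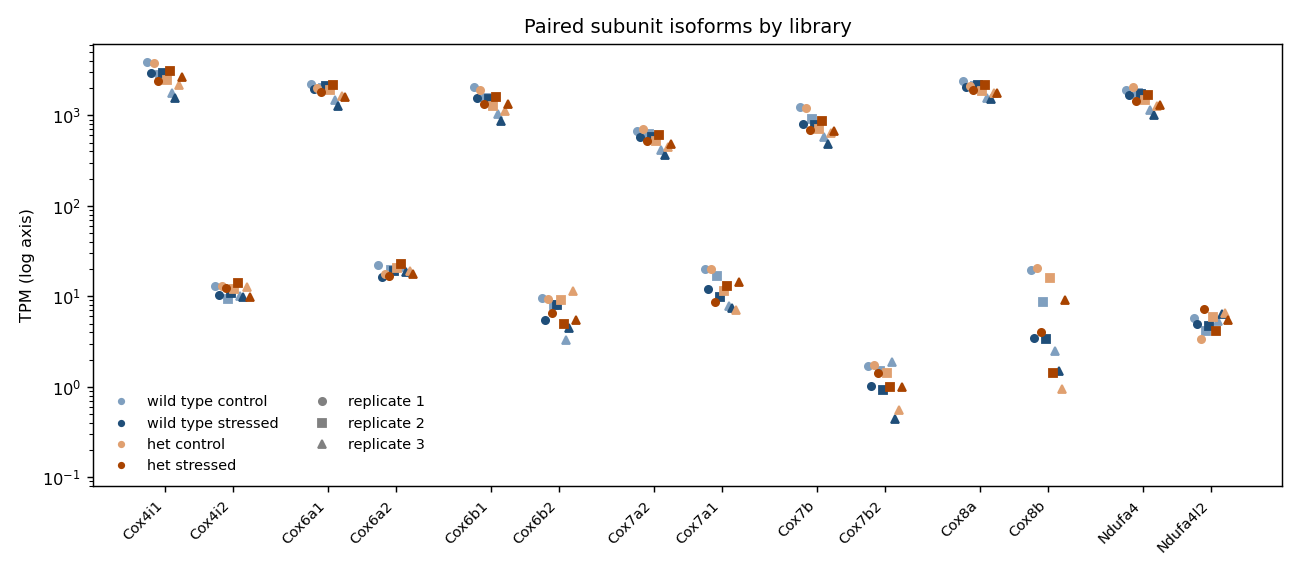
Level in TPM, on a log axis, of the main and second form of 7 subunits in each of the 12 libraries, coloured by group and shaped by replicate number. Every library of a main form lies above every library of its partner, and Cox8b is the partner with the widest spread, from 0.95 to 20.5 TPM.

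Ndufb4c, by its symbol a copy of the complex I subunit Ndufb4, had 10.8 times its mean TPM (9.58 to 11.6), and since reads can be split between copies, neither value is certain. Ndufa11b, Ndufs6b and Cox8c had no counts in any library, which allows up to 3 counts, or 0.0125 CPM (counts per library total, not corrected for length) over the 12 libraries together. Cox6c2 had 15.1 counts in all and was at 0 in 7 libraries. These are the 4 members that were not tested.

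In TPM, the 2 genomes' messages varied in opposite directions from library to library. The mitochondrial sum was 73142, 120908 and 175889 TPM in the 3 wild-type controls and 110369, 130486 and 167998 TPM in the 3 wild-type stressed mice. In heterozygous mice it was 83200, 131680 and 141948 TPM in controls and 126493, 124301 and 143724 TPM after stress. The nuclear sum was 45826, 36995 and 26361 TPM and then 36184, 36696 and 24275 TPM in the wild-type groups, and 42768, 32665 and 29863 TPM and then 32424, 38092 and 31743 TPM in the heterozygous groups. Wild-type control replicate 1 and heterozygous control replicate 1 were the lowest in the mitochondrial sum and the highest in the nuclear sum, and wild-type control replicate 3 and wild-type stressed replicate 3 were the reverse. TPM values share a fixed total, so part of such an opposition is built into the unit. In percent of counts, wild-type control replicate 1 and heterozygous control replicate 1 were still lowest in mitochondrial (5.11 and 6.42%) and highest in nuclear share (2.23 and 2.315%). The other end differed. Wild-type stressed replicate 2 had 8.84% mitochondrial and 1.66% nuclear counts, both above replicate 3 of that group (8.17 and 0.90%). The ratio of the mitochondrial to the nuclear sum was 3.85 ± 2.59 in wild-type controls, 4.51 ± 2.10 in wild-type stressed, 3.58 ± 1.46 in heterozygous controls and 3.90 ± 0.632 in heterozygous stressed mice (SD, n = 3 each). Within the wild-type controls alone it ran from 1.60 to 6.67, wider than any difference between the group means. All 4 groups overlapped in it. In bulk tissue, fewer cells of a type and less RNA per cell cannot be told apart.

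**Figure D3:**
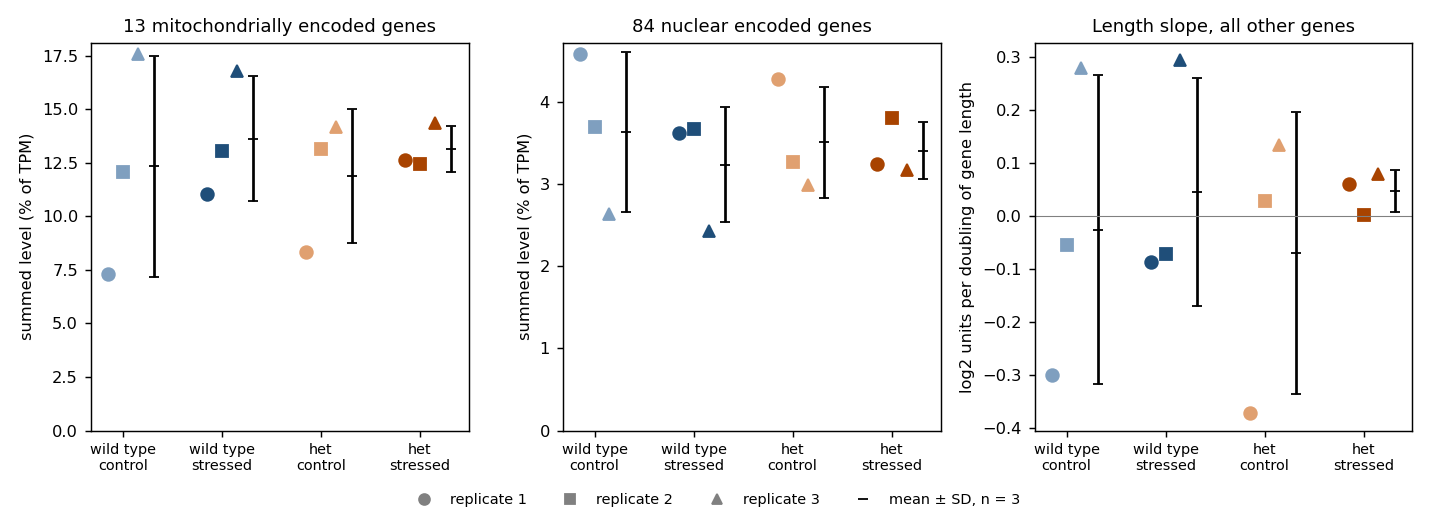
Summed level of the 13 mitochondrially encoded genes (left) and of the 84 nuclear genes (middle), as a percentage of the TPM total, and the length slope of each library (right). Points are single libraries with their replicate number as the shape, and bars are the mean ± SD of 3. The libraries of lowest slope have the lowest mitochondrial and the highest nuclear level, and the groups overlap in the levels and in the slope.

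The spread between mice of 1 group was not shared evenly by the members. From wild-type control replicate 1 to replicate 3, which differ most in length slope within a group, 12 of 13 mitochondrial messages were lower in replicate 1, and 60 of the 68 nuclear subunits were higher. The median ratio of replicate 1 to replicate 3 in TPM was 0.36 for mitochondrial messages and 1.53 for nuclear subunits. The lowest ratio was that of mt-Nd4l, at 541 and 3283 TPM, and the highest, apart from Cox8b, that of Ndufa7, an accessory subunit of complex I, at 1050 and 354 TPM. Cox4i1 was at 3907 and 1780 TPM, while Sdha ran the other way, at 117 and 255 TPM. Heterozygous control replicates 1 and 3 showed the same opposition in 12 of 13 mitochondrial messages and 50 of 68 nuclear subunits. In heterozygous stressed mice, whose slopes lay between 0.003 and 0.08, the median mitochondrial message varied only 1.13-fold.

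In TPM, a few members were nearly level over all 12 libraries. The complex I core subunit Ndufs3 stayed between 262 and 306 TPM, Cox5a, a complex IV subunit, between 441 and 519 TPM, and Uqcrb, a complex III subunit, between 267 and 322 TPM. The mitochondrial message mt-Nd3 ranged only from 5387 to 7782 TPM, against 473 to 3447 TPM for mt-Nd4l. Members of 1 complex, or of 1 mitochondrial transcript, thus had very different spreads in TPM. In CPM (scaled by TMM) the same members were less level. Ndufs3 ran from 143 to 249, Cox5a from 155 to 270, Uqcrb from 73.8 to 120 and mt-Nd3 from 877 to 1997. Ndufs1, at 55.7 to 114.8 TPM, stayed between 149 and 182 CPM. Which members were level thus depended on the unit.

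To measure change with the length slope over all genes, the slope of each library was added to the edgeR model beside the 4 group means. It was tested as a covariate. A value is the log2 change in counts for each 0.1 of slope. With the adjusted p under 0.05, 31.6% of all genes tested rose with the slope and 29.9% fell, and these include the genes from which the slope was computed. Of the 80 nuclear members, 76 fell and 1 rose. Of the 13 mitochondrial messages, 10 rose and 1 fell. The medians were -0.20 for nuclear members and 0.11 for mitochondrial messages, and 0.00 for all genes.

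Among nuclear members, complex III fell in 8 of 8 (median -0.23), complex IV in 17 of 17 (-0.22), complex I subunits in 37 of 39 (-0.20), assembly factors in 11 of 12 (-0.19) and complex II in 3 of 4 (-0.14). By their symbols, Ndufa4 (-0.26 ± 0.02), Ndufa4l2 and the copy Ndufb4c were counted with complex I here, although Ndufa4 was later placed in complex IV. Cox8b, at low counts, had the most negative value, -0.52 ± 0.15 (SE, adjusted p = 0.0131). Next came Ndufb4c and Ndufa7 (both -0.36 ± 0.01), Ndufb4 (-0.35 ± 0.01), Cox7a1 (-0.34 ± 0.04), the complex I accessory subunit Ndufb8 (-0.34 ± 0.01) and the complex III subunit Uqcrq (-0.33 ± 0.01, adjusted p = 2.33e-09). The 4 abundant subunits shown above with the ETS word had -0.21 ± 0.02 (Cox6a1), -0.29 ± 0.01 (Cox6b1), -0.32 ± 0.02 (Uqcr11) and -0.31 ± 0.01 (Uqcrh). Sdha was the exception that rose, by 0.10 ± 0.01 (adjusted p = 1.59e-05). Ndufs1 (0.03 ± 0.01, adjusted p = 0.0545), Ndufaf1 and Ndufa4l2 did not pass the test.

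Sdha and Ndufs1 are among the longest members, with effective lengths (the length over which a read can start) of 2769 and 2596 nt. The nuclear members as a whole have a median effective length of 627 nt. Other genes of 500 nt or less had a median of -0.20 and 302 of 477 fell, and those of 500 to 1000 nt had -0.16. From 2000 to 4000 nt the median was 0.03 and above 4000 nt it was 0.14. The median of the nuclear members thus equalled that of the shortest class to 2 decimals. It was below that of the class of 500 to 1000 nt, which holds their median length. In that class 1075 of 1552 other genes fell, against 76 of 80 nuclear members. Ndufa11 and Sdhaf2, at 2561 and 2996 nt, had -0.23 ± 0.02 and -0.20 ± 0.01, below the median of their length class, in which 988 of 6275 other genes fell and 2250 rose.

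The mitochondrial messages did not follow gene length. Their median effective length was 684 nt, close to that of the nuclear members, yet most rose. Both the longest, mt-Nd5 (1724 nt), and the shortest, mt-Atp8 (104 nt), rose, by 0.23 ± 0.04 and 0.22 ± 0.02. The largest rise was that of mt-Nd4l (197 nt), by 0.31 ± 0.04 (adjusted p = 2.80e-05), and mt-Nd4 rose by 0.21 ± 0.03. By contrast mt-Nd3, 248 nt long, fell by 0.13 ± 0.02 (adjusted p = 0.000646). The complex IV messages mt-Co1 (0.05 ± 0.03) and mt-Co3 (-0.02 ± 0.03) did not pass the test, and mt-Co2 rose by 0.06 ± 0.02. The 2 mitochondrial ribosomal RNAs, from the same genome, both fell (median -0.17).

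Leaving out each library in turn, 75 to 76 nuclear members fell and 9 to 11 mitochondrial messages rose. Without all 4 libraries that stand apart, 0 of 80 and 0 of 13 passed (2 of 16607 genes did), with medians of -0.27 and 0.09, so the calls rest on those libraries. What the slope reflects in the tissue or the library was not tested.

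**Figure D4:**
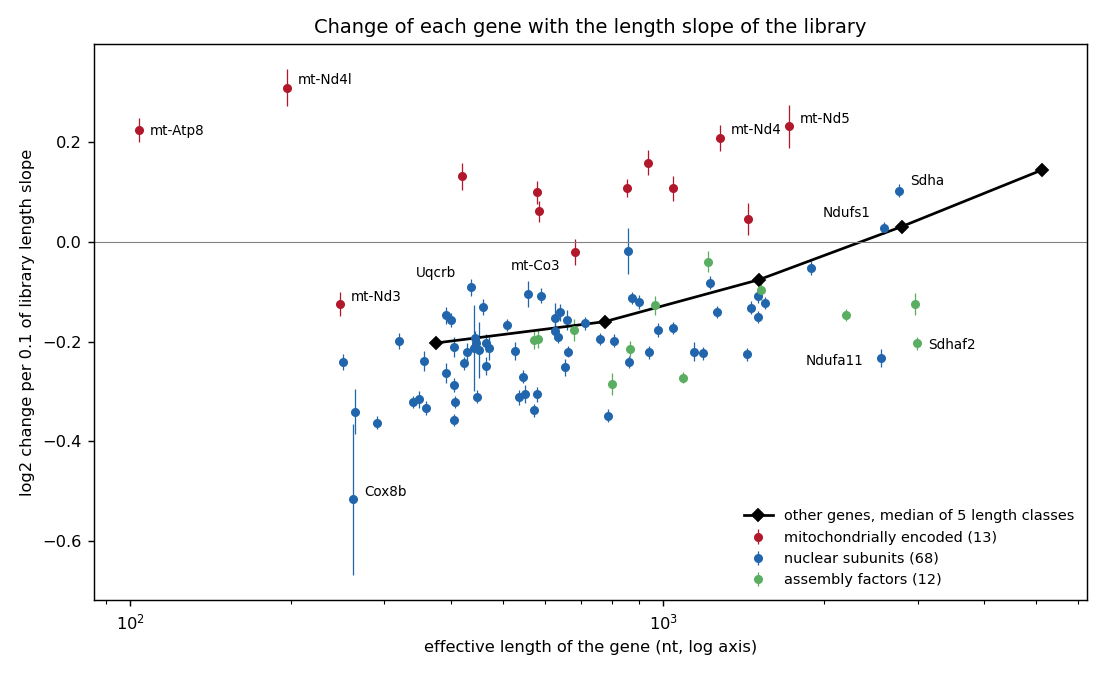
Log2 change of each of the 93 tested members per 0.1 of library length slope, with its standard error, against effective gene length in nt (log axis). The black line joins the medians of other genes in 5 length classes. Most nuclear members lie near or below that line and mitochondrial messages lie above it, with mt-Nd3 below 0.

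The rest of the pathway was described from lists of related genes, to be read beside the 29.9% of all genes that fell and the 31.6% that rose. Of 16 nuclear ATP synthase genes, 15 fell with the length slope and none rose (median -0.22). Of 13 genes of electron carriers and coenzyme Q synthesis 9 fell and none rose, and of 22 other assembly factors 15 fell and 2 rose. Of 20 genes that maintain or express mitochondrial DNA 11 fell and 5 rose, and of 13 genes of the tricarboxylic acid cycle, which feeds the chain, 6 fell and 2 rose. Of 12 regulators of mitochondrial biogenesis, which are longer genes, 7 rose and 3 fell.

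Between the groups, no member passed the test in any of the 8 contrasts by edgeR's quasi-likelihood test with Benjamini-Hochberg adjustment. Over all genes tested, 0.00627% (1 gene) were called in each of the heterozygous against wild-type comparisons, in controls and after stress, in heterozygous stressed against wild-type control, and in the genotype average. In stressed against control mice of either genotype, in the interaction and in the stress average, 0% were called. DESeq2 and limma-voom with sample weights also called 0 members in every contrast. The smallest adjusted p of a member was 0.975 by edgeR, and 0.0836 by limma-voom, for the complex II assembly factor Sdhaf4 in heterozygous against wild-type controls, where limma-voom called 983 genes. At an unadjusted p under 0.05, edgeR had 1 of 93 members in stressed against control heterozygous mice (Cox6b2), beside 1.12% of all genes, and 1 in the stress average (Cox8b), beside 2.34%. It had 0 members in the other 6 contrasts, beside 1.47% of all genes in heterozygous against wild-type controls, 0.57% in the same comparison after stress and 2.49% in wild-type stressed against control mice. The share was 1.28% in heterozygous stressed against wild-type control mice, 1.33% in the interaction and 0.708% in the genotype average.

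In controls, the list medians between genotypes were small, but they changed sign when single libraries were left out. The median log2 fold change, heterozygous over wild type, was -0.01 for the 13 mitochondrial messages (range -0.09 to 0.27), 0.05 for 68 nuclear subunits and 0.08 for 12 assembly factors, beside 0.00 for all genes. The complex IV message mt-Co3 had 0.20 ± 0.17 (SE, unadjusted p = 0.270), and mt-Nd3 had 0.27 ± 0.26. No member had separate groups, meaning that the 3 CPM values of 1 group all lay on 1 side of those of the other, beside 3.38% of all genes. The nuclear median turned to -0.29 without heterozygous control replicate 1 and to -0.20 without wild-type control replicate 3, was -0.21 by limma-voom, and was 0.36 without wild-type control replicate 1. The mitochondrial median ran from -0.25 without wild-type control replicate 1 to 0.25 without wild-type control replicate 3. In the same comparison all 12 oligodendrocyte markers were lower (median -0.29) and all 11 striatal neuron markers higher (0.25), and 6 of 6 thalamus markers were lower (-1.19), with 0 called. The thalamus sum was 130 TPM in wild-type control replicate 3, 50.8 and 44.2 TPM in replicates 1 and 2, and 25.2 to 32.9 TPM in heterozygous controls. Every contrast below that uses wild-type controls includes that high library. The part of cell makeup in these values was not tested.

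After prenatal stress, 12 of 13 mitochondrial messages were lower in heterozygous than in wild-type mice, with a median log2 fold change of -0.22, beside 0.00 for all genes and -0.06 for nuclear subunits. The 2 mitochondrial ribosomal RNAs, from the same genome, had a median of 0.01. The median of the mitochondrial messages kept its sign in 21 of 21 alternatives, all of them fits of counts from these same libraries. It ran from -0.32 to -0.17 when each library was left out and was -0.23 with the length slope in the model. By mean TPM, however, mt-Co3, mt-Atp6 and mt-Nd3 were higher in heterozygous than in wild-type stressed mice, and the other messages were lower. The means were 25162 against 22316 TPM for mt-Co3, 12831 against 12529 for mt-Atp6 and 6478 against 6267 for mt-Nd3. No single message passed the test. For mt-Nd2 the value was -0.32 ± 0.29, for mt-Cytb -0.24 ± 0.23, for mt-Co1 -0.22 ± 0.20 and for mt-Co2 -0.21 ± 0.17 (unadjusted p = 0.249). By a normal approximation, the 95% interval for mt-Co2 ran from -0.55 to 0.13. Cell type markers moved in this contrast too, with 0 called. All 12 oligodendrocyte markers were higher (median 0.18), as were 8 of 8 microglia (0.06) and 6 of 7 choroid plexus markers (2.31), and 6 of 6 ependymal markers were lower (-0.90). Their part in the members' values was not tested.

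The message mt-Nd2 had 2689, 3255 and 3561 CPM (scaled by TMM) in wild-type stressed mice and 2552, 2539 and 2504 in heterozygous stressed mice. In wild-type and heterozygous controls it had 1649, 2852 and 3534, and 1663, 3117 and 3087. All 3 heterozygous stressed mice were thus below the 3 wild-type stressed mice and lay within the range of both control groups. The 3 messages mt-Nd2, mt-Co2 and mt-Cytb had separate groups in this contrast, as did 5.18% of all genes. In TPM the same 3 messages overlapped, with mt-Nd2 at 3583 to 6425 TPM in wild-type and 3962 to 4203 TPM in heterozygous stressed mice. No nuclear member had separate groups here, and the nuclear median was 0.07 or 0.09 without wild-type stressed replicate 1 or 2 and -0.32 without replicate 3. Wild-type stressed replicate 2, the library with little Xist, was the highest in CPM of mt-Co2 (9797) and mt-Cytb (9999).

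Within wild-type mice, stress against control had a positive median for mitochondrial messages (0.18, 12 of 13 higher) and a negative one for nuclear subunits (-0.18, 67 of 68 lower), beside -0.01 for all genes. The 16 ATP synthase genes were all lower too (median -0.18). Neither direction was independent of single libraries. Without wild-type control replicate 1 the medians were -0.02 and 0.12, and without wild-type stressed replicate 3 the nuclear median was 0.02. Without wild-type control replicate 3 they were 0.42 and -0.43. With the length slope in the model the nuclear median was -0.03 and the mitochondrial one 0.15. Cox7b2 had separate groups, with 1.69, 1.50 and 1.89 TPM in controls and 1.03, 0.93 and 0.44 TPM after stress (-1.06 ± 0.58, unadjusted p = 0.0945). It was the only such member, beside 5.79% of all genes, and its level is near the limit of detection. The 12 oligodendrocyte markers were all lower in this contrast (median -0.53), as were the 7 choroid plexus (-3.30), 6 thalamus (-1.07) and 8 microglia markers (-0.16). All 11 striatal neuron markers were higher (0.12). None of these markers was called, and their part in the members' values was not tested.

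Within heterozygous mice the nuclear subunits had a median of -0.33 with stress (64 of 68 lower), the assembly factors -0.24, and the mitochondrial messages -0.05. Without heterozygous control replicate 1, whose file carries another animal number, the nuclear median was 0.05, and with the length slope in the model it was 0.00. In this contrast 11 of 11 striatal neuron markers (median -0.09), 5 of 5 pericyte (-0.08), 6 of 6 ependymal (-0.56), 5 of 5 striated muscle (-0.14) and 7 of 7 choroid plexus markers (-1.21) were lower, with 0 called, and their part was not tested. The mitochondrial median was 0.06 without heterozygous control replicate 2, 0.08 without replicate 3 and -0.20 without replicate 1. Cox6b2 had 9.31, 9.04 and 11.3 TPM in heterozygous controls and 6.50, 4.96 and 5.48 TPM after stress. The groups were separate (-1.07 ± 0.44, unadjusted p = 0.0354, adjusted p = 0.99995), while wild-type mice, at 9.50, 8.11 and 3.30 TPM in controls and 5.46, 8.04 and 4.52 TPM after stress, overlapped. In CPM Ndufa6, an accessory subunit of complex I (-0.34 ± 0.24), and Ndufaf8, a complex I assembly factor (-0.44 ± 0.31), were also separate, but in TPM both overlapped. These are 3 of 93 members, beside 6.68% of all genes. Among mitochondrial messages mt-Nd3 had the smallest p, 0.131 unadjusted (-0.42 ± 0.26). It had 1997, 1052 and 1252 CPM in controls and 1186, 1003 and 1017 after stress, so heterozygous control replicate 1 stood highest and the groups overlapped.

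Heterozygous stressed against wild-type control mice differ in both factors. The medians were -0.03 for mitochondrial messages, -0.27 for nuclear subunits and -0.16 for assembly factors, and Cox7b2 was the only member with separate groups (-0.73 ± 0.53), beside 6.31% of all genes. Without wild-type control replicate 1 the nuclear median was 0.05, rather than -0.27, and without wild-type control replicate 3 the mitochondrial one was 0.16. Here 12 of 12 oligodendrocyte markers were lower (median -0.32, with 8 separate), as were 6 of 6 thalamus (-0.94), 6 of 6 ependymal (-0.99) and 7 of 7 choroid plexus markers (-1.01), and their part was not tested. The interaction, the stress difference in heterozygous minus that in wild-type mice, was negative for 13 of 13 mitochondrial messages (median -0.26) and for 53 of 68 nuclear subunits (-0.12). Single messages ranged from -0.12 ± 0.31 (mt-Atp6) to -0.34 ± 0.37 (mt-Nd3), all within 2 standard errors of 0. Without wild-type control replicate 1 the mitochondrial median was 0.03, and in the other alternatives it was negative. The nuclear median was positive in 6 of 21 alternatives, at most 0.22 without heterozygous control replicate 1. In the interaction 12 of 12 oligodendrocyte (median 0.53), 8 of 8 microglia (0.10) and 6 of 6 thalamus markers (1.33) were higher and 11 of 11 striatal neuron markers were lower (-0.24), with 0 called, and their part was not tested. Genes of the tricarboxylic acid cycle ran the other way, higher in 13 of 13 (median 0.14), with none called. They were lower in 13 of 13 in heterozygous against wild-type controls (-0.07) and higher in 13 of 13 in heterozygous against wild-type stressed mice (0.07). Unlike the member lists, this list was not followed with single libraries left out. These contrasts share groups with one another and are not separate observations.

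**Figure D5:**
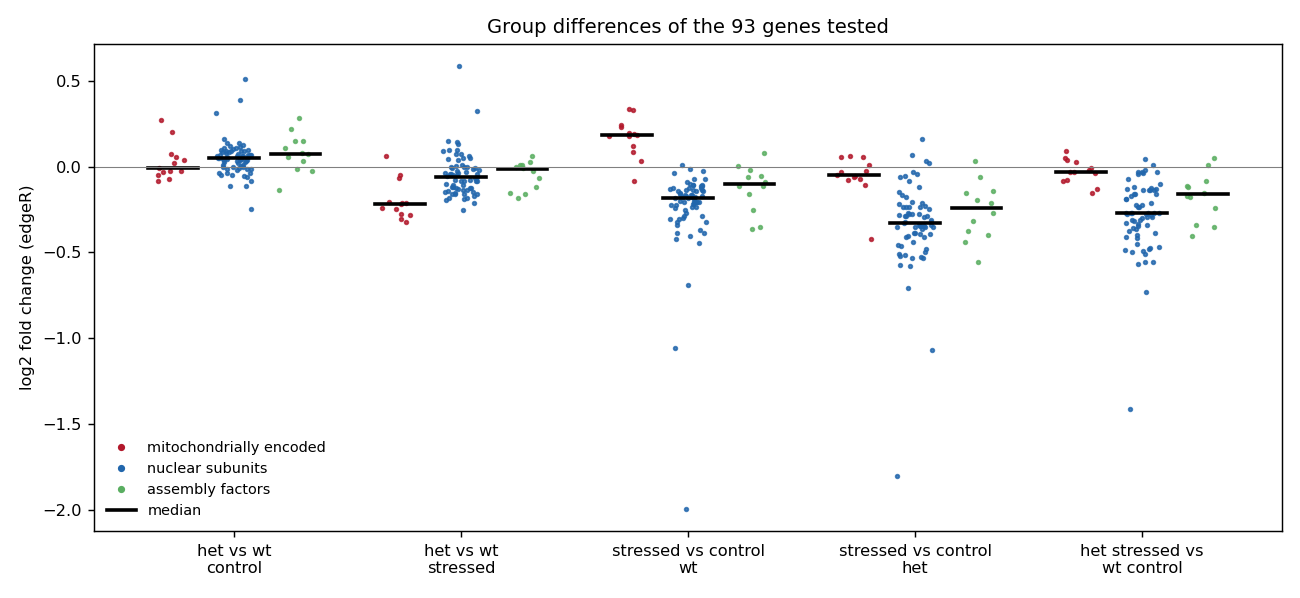
Log2 fold change (edgeR) of the 93 tested members in 5 comparisons of groups (het, heterozygous; wt, wild type), with mitochondrial messages, nuclear subunits and assembly factors side by side and a black bar at each median. Of 13 mitochondrial messages 12 lie below 0 in stressed heterozygous against stressed wild-type mice (median -0.22), most nuclear subunits lie below 0 where stressed mice are compared with controls (67 and 64 of 68 within a genotype), and no point passed the test.

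The sum of complex II ran from 803 to 962 TPM over the libraries, and its direction in 2 of 3 comparisons depended on the unit. The 4 subunits summed to 908, 962 and 940 TPM in heterozygous stressed mice and to 803 to 877 TPM in the other 9 libraries, so that group was highest and did not overlap the rest. The group means were 873 ± 6.49 in wild-type controls, 827 ± 22.9 in wild-type stressed, 853 ± 15.2 in heterozygous controls and 937 ± 27.1 in heterozygous stressed mice (SD, n = 3). In counts scaled by TMM, however, all 4 subunits were lower in heterozygous stressed than in wild-type control mice (median -0.07), and 3 of 4 were lower than in heterozygous controls (-0.15). Against wild-type stressed mice 3 of 4 were higher (0.03), the same direction as in TPM. The sum was singled out after its values were seen, and no test was made of it.

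Regulators and other genes of the pathway were not called in any contrast. Polg2, the accessory subunit of the mitochondrial DNA polymerase, had -0.40 ± 0.16 with stress in wild-type mice (unadjusted p = 0.0314). Ppargc1a, a coactivator of mitochondrial biogenesis, had -0.43 ± 0.29 and Nrf1 0.25 ± 0.14 in heterozygous against wild-type controls. Lrpprc, which stabilises mitochondrial messages, had -0.28 ± 0.16 there. Cs, citrate synthase, had 0.25 ± 0.15 and the ATP synthase subunit gene Atp5e -0.73 ± 0.61 with stress in heterozygous mice.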

How the data were processed

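RNA was made into libraries with a NuGen kit and random primers, and the molecule is given as polyA RNA, per the labels' protocols. RSEM and Bowtie with mm9 (NCBIM37) are named in the submitters' processing notes, and the sources used here give no versions for them. The authors deposited for each library a gene table of expected counts and TPM from RSEM, per the file headers, with no pooling. Deposited transcript tables and 5hmC tables were not used here. Symbols came with the gene identifiers in the files or their name table, for 87.4% of genes, and 3 pseudogene symbols were left out. The members and lists were chosen with earlier results of these data known.

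In R 4.3.3, edgeR 4.0.16 was run on the rounded expected counts of all 12 libraries (filterByExpr, TMM, glmQLFit with robust dispersion, glmQLFTest), with a mean for each of 4 groups. Of 8 contrasts, 5 compared a pair of groups and the others were the interaction and the averaged genotype and stress differences. P-values were two-sided, adjusted by Benjamini-Hochberg over the 15955 genes and called at 0.05. The biological coefficient of variation was 0.256. The fit was also run on simulated counts with known changes. These were drawn without a length slope between libraries, so they do not check the fit under slopes like those here. The length slope used genes with a mean count of at least 50. Alternatives used DESeq2 1.42.0, limma 3.58.1, other scalings and filters, a replicate block, the length slope as a covariate, and each library left out. Tests without the libraries of extreme length slope were added after seeing the data. Where levels were compared between genes TPM was used. Errors of fold changes are standard errors, and the floor of 3 counts covers counting error only.

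Genes were named by rule: the most abundant member of each complex, those with the smallest p over the 4 contrasts that differ in 1 factor, all isoform pairs, and the 2 genes of smallest p in each other list. Members with the most extreme length-slope values and those whose groups did not overlap were named after their values were seen. Replicates are separate mice that may share a litter, and a p-value reflects only how these mice varied. No pair of replicate libraries matched within sampling noise (9.22 to 221 chi-square units per gene).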

Additional observations from a re-analysis of the deposited data

How the results depend on the processing

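No member was called in any of the 173 alternative fits of the 8 contrasts. The list medians often changed sign, as given beside them above, and none of their 504 alternative values moved by as much as the SD of the list's median level between mice of a group. That SD, 0.39 for mitochondrial messages, 0.45 for nuclear subunits and 0.42 for assembly factors, was larger than every list median, so this says nothing of stability. Over all genes, limma-voom called 983 genes in heterozygous against wild-type controls where edgeR called 1. It called 49 against 1 in heterozygous stressed against wild-type control mice, 10 against 1 in the genotype average, 3 against 1 between stressed genotypes, 43 and 14 against 0 with stress in wild-type and heterozygous mice and 6 against 0 in the stress average. DESeq2 called 12 genes with stress in wild-type mice and 0 to 3 in the other contrasts. Same-numbered mice of different groups correlated from -0.26 to 0.67 (median 0.09, 18 pairs) and mice of different numbers from -0.74 to 0.42 (median -0.09, 36 pairs). Replicates 1 and replicates 3 of wild-type control, wild-type stressed and heterozygous control mice correlated at 0.34 to 0.67, but not all pairs exceeded 0.1, and the labels tie the numbers to no litter or batch, so the mice were not treated as paired. The replicate block called 0 members (smallest adjusted p = 0.836, Cox6b2, stress average). With CPM in place of TPM, the ratio of the mitochondrial to the nuclear sum in heterozygous stressed mice was 5.39 rather than 3.90. With TPM rescaled without any mitochondrially encoded gene, ribosomal and transfer RNAs included, the nuclear sum in these mice was 39798 rather than 34086 TPM. Both units weight gene length differently or exclude the mitochondrial share by construction. With one library of a group left out, the ratio ran from 2.43 to 4.97 in wild-type controls, 3.30 to 5.24 in wild-type stressed, 2.99 to 4.39 in heterozygous controls and 3.58 to 4.21 in heterozygous stressed mice. Without the 4 libraries of extreme length slope, in a fit of 8 libraries, 0 nuclear members were called lower and 0 mitochondrial messages higher with the slope, as 2 of 16607 genes were called at all, while the medians were -0.27 and 0.09. With 3 mice a group and these slopes, modest changes in single members could not be resolved. Median 95% intervals of log2 fold changes spanned 1.02 for mitochondrial and 1.32 for nuclear members. These intervals used a normal approximation, which makes them narrower than intervals from the test itself would be.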
